A study of Rattus norvegicus with 12 samples.

Results

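The genes described here are 32 gene IDs of 30562 in the deposited counts. They were raised in Control replicate 9, a library made after nerve crush that stood apart from the other 2 of its group. They were selected on the counts of the 3 Control libraries alone. Counts were first scaled to CPM, the counts in each 1000000 of a library's total, and that total was taken without ENSRNOG00000020644, the member with the most counts in Control replicate 9. An ID was kept where Control replicate 9 had at least 30 CPM and at least 3 times the mean of Control replicates 1 and 4. A further list of 27 IDs was to be dropped, but 0 of these reached both thresholds (the highest ratio among them was 1.67), so dropping them removed no member. ENSRNOG00000020644 met the rule itself and is 1 of the 32. Because the Control libraries chose the members, their values there are given as a description with no test. The members were then followed in the 9 libraries of the other groups, which the rule did not use.

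The study sequenced RNA after a crush injury of the sciatic nerve in male Sprague Dawley rats of 5 weeks, with 3 libraries in each of 4 groups. Control rats had the crush, and the labels name no injection, while the methods describe crushed rats injected with saline buffer (PBS) as controls. iPSC-Exos rats received 10 µL of exosomes, small membrane vesicles shed by induced pluripotent stem cells, labelled as 103, 104 and 105 µg/mL in replicates 2, 3 and 5. These labelled doses rise by 1 from each replicate to the next. The study describes the same dose for all such rats and no comparison of doses in rats, which the labels do not match. It chose 100 µg/mL for the work in rats after comparing concentrations on cultured Schwann cells. LIPUS rats received low intensity pulsed ultrasound at 250 mW/cm² and 1 MHz with a 20% duty cycle, on 5 days a week and for 5 min a day, over 4 weeks. iPSC-Exos + LIPUS rats received the same ultrasound and 10 µL of exosomes at 100 µg/mL. All groups carried the crush. The labels name brain as the tissue and the protocol names sciatic nerve. This could not be checked against marker genes, because the counts pair no ID with a gene name and the reference table at hand, with 47357 genes, carries 0 of these IDs. The methods have nerves for sequencing taken a week after the crush and describe no ultrasound group. The labelled course of ultrasound lasts longer than that, and its sampling day is not given in the sources used here. A difference in sampling day, if there was any, cannot be told apart from the ultrasound. The labels put the 12 libraries in a single batch. They do not say that replicates are separate animals, so p-values measure the spread between these samples, which may be technical.

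After a crush, the axon beyond the injury degenerates. The study describes the outer sheath of the nerve, the epineurium, as left intact and the inner sheaths as damaged. Schwann cells leave their myelinating state, clear debris together with invading macrophages, and form the tracks along which axons regrow. A piece of nerve therefore holds glia, fibroblasts, vessels, fat and blood cells besides axons, whose cell bodies lie elsewhere. In bulk RNA, more cells of a type and more RNA per cell cannot be told apart. The gene names and the roles of the members were not available, so they are described by ID and value.

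Total counts lay between 1251715 and 1854545, the latter in Control replicate 9. The level that 3 counts stand for, taken as the lowest that could be read, was 2.01 to 2.45 CPM depending on the library. Over 4640 genes, the mean Euclidean distance of a library to the other 11 on the log2 CPM scale was 56.9 for Control replicate 9. For the other libraries it lay between 43.7 and 48.7. With the members left out, over 4609 genes, it was 53.3 for Control replicate 9 and between 41.9 and 47.8 for the others. The library therefore stood apart by this measure, chosen after the data were seen, with and without the members.

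ENSRNOG00000020644 held 602028 counts in Control replicate 9, or 32.5% of the library. The 95% Wilson interval was 32.4 to 32.5%, and intervals here and below cover counting error alone. Control replicates 1 and 4 held 2.14% and 1.11%. The iPSC-Exos libraries held 2.85% in replicate 2, 2.14% in replicate 3 and 1.08% in replicate 5. These 5 libraries lay close together beside Control replicate 9. Its share was 2.25%, 0.391% and 0.539% in LIPUS replicates 2, 6 and 7, the last 2 being the lowest of all libraries (95% Wilson intervals 0.381 to 0.401% and 0.527 to 0.551%). In iPSC-Exos + LIPUS replicates 1, 2 and 3 it was 1.94%, 9.28% and 2.71%. Replicate 2 of this group was thus the second highest library of the 12 (95% Wilson interval 9.24 to 9.33%). The mean share was 2.02% ± 0.888 (SD, n = 3) with iPSC-Exos, 1.06% ± 1.03 (SD, n = 3) with LIPUS and 4.64% ± 4.04 (SD, n = 3) with iPSC-Exos + LIPUS. These 3 groups overlapped, and no comparison between them passed with edgeR. The log2 fold change was 1.27 for iPSC-Exos + LIPUS against iPSC-Exos (adjusted p = 0.716), 2.19 against LIPUS (adjusted p = 0.0948) and -0.92 for LIPUS against iPSC-Exos (adjusted p = 0.555), all from edgeR.

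The 31 other members together held 1.76% of the counts outside ENSRNOG00000020644 in Control replicate 9, against 0.288% and 0.121% in Control replicates 1 and 4 (95% Wilson interval 1.73 to 1.78% in Control replicate 9). Their summed share was 0.417%, 0.242% and 0.259% in iPSC-Exos replicates 2, 3 and 5, and 0.326%, 0.425% and 0.287% in LIPUS replicates 2, 6 and 7. In iPSC-Exos + LIPUS replicates 1, 2 and 3 it was 0.396%, 0.498% and 0.414%. The highest of the 9 libraries outside the Control group was again iPSC-Exos + LIPUS replicate 2 (95% Wilson interval 0.487 to 0.510%). The group means were 0.306% ± 0.0967 (SD, n = 3) with iPSC-Exos, 0.346% ± 0.0711 (SD, n = 3) with LIPUS and 0.436% ± 0.0545 (SD, n = 3) with iPSC-Exos + LIPUS. The groups overlapped, and no test was made of a sum over members chosen for their level. Without the 10 members highest in Control replicate 9, the means were 0.0779%, 0.0635% and 0.0799% in the same order. The mean with iPSC-Exos then lay above that with LIPUS.

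**Figure D1:**
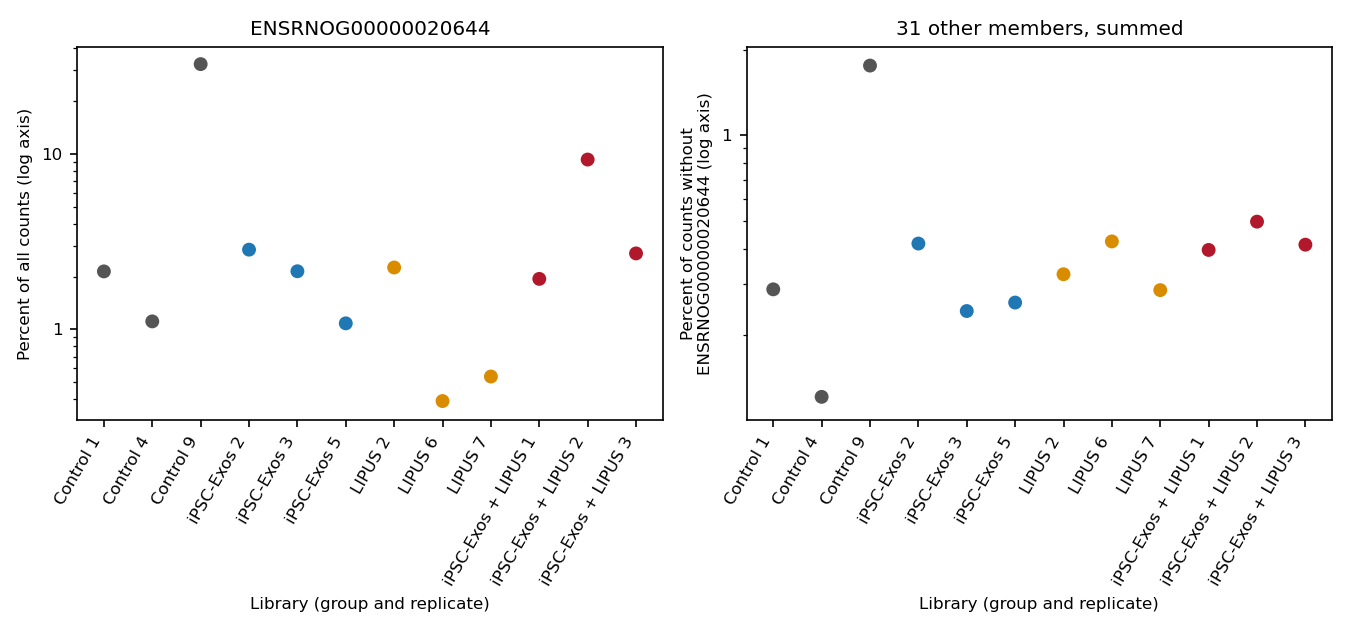
Left, the share of all counts held by ENSRNOG00000020644 in each of the 12 libraries; right, the summed share of the 31 other members among the remaining counts. Points are libraries coloured by group on log axes and bars, mostly hidden by the points, are 95% Wilson intervals; Control replicate 9 is highest in both panels, at 32.5% and 1.76%, and iPSC-Exos + LIPUS replicate 2 follows at 9.28% and 0.498%.

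Within the Control group the members ranged from 35.1 to 480655 CPM in Control replicate 9, and their ratio to the mean of Control replicates 1 and 4 from 3.07 to 295, with a median of 5.20. Just inside the rule, the member with the lowest level had 35.1 CPM and the member with the lowest ratio had a ratio of 3.07. Just outside it, the nearest ID by level had 24.8 CPM with a ratio of 3.77, and the nearest by ratio had 2.86 with 897 CPM. The largest ratio belonged to ENSRNOG00000014973, which had 22.2, 3.11 and 3728 CPM in Control replicates 1, 4 and 9. Its level was 19.4, 18.1 and 5.62 CPM in iPSC-Exos replicates 2, 3 and 5, and 35.1, 3.35 and 0.713 CPM in LIPUS replicates 2, 6 and 7. It was 1.55, 215 and 19.8 CPM in iPSC-Exos + LIPUS replicates 1, 2 and 3, so that replicate 2 was the highest outside the Control group and the other 8 of these libraries lay at or below 35.1 CPM. In LIPUS replicate 7 and iPSC-Exos + LIPUS replicate 1 it had fewer than 3 counts.

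Of the 32 members, 23 were highest in Control replicate 9 among all 12 libraries. The other 9 were higher in another library. ENSRNOG00000026799, named after its values were seen, had 45.5 CPM in Control replicate 9 and 441 CPM in iPSC-Exos + LIPUS replicate 2, where the other 10 libraries lay between 10.7 and 35.9 CPM. ENSRNOG00000000857, also named after its values were seen, did not follow the Control library alone. It had 1005, 3.89 and 2112 CPM in Control replicates 1, 4 and 9. In the iPSC-Exos group it had 1220, 181 and 132 CPM in replicates 2, 3 and 5, and in the LIPUS group 1042, 1208 and 1188 CPM in replicates 2, 6 and 7. In iPSC-Exos + LIPUS replicates 1, 2 and 3 it had 1244, 9.29 and 166 CPM. Its libraries lay far apart in every group but LIPUS.

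**Figure D2:**
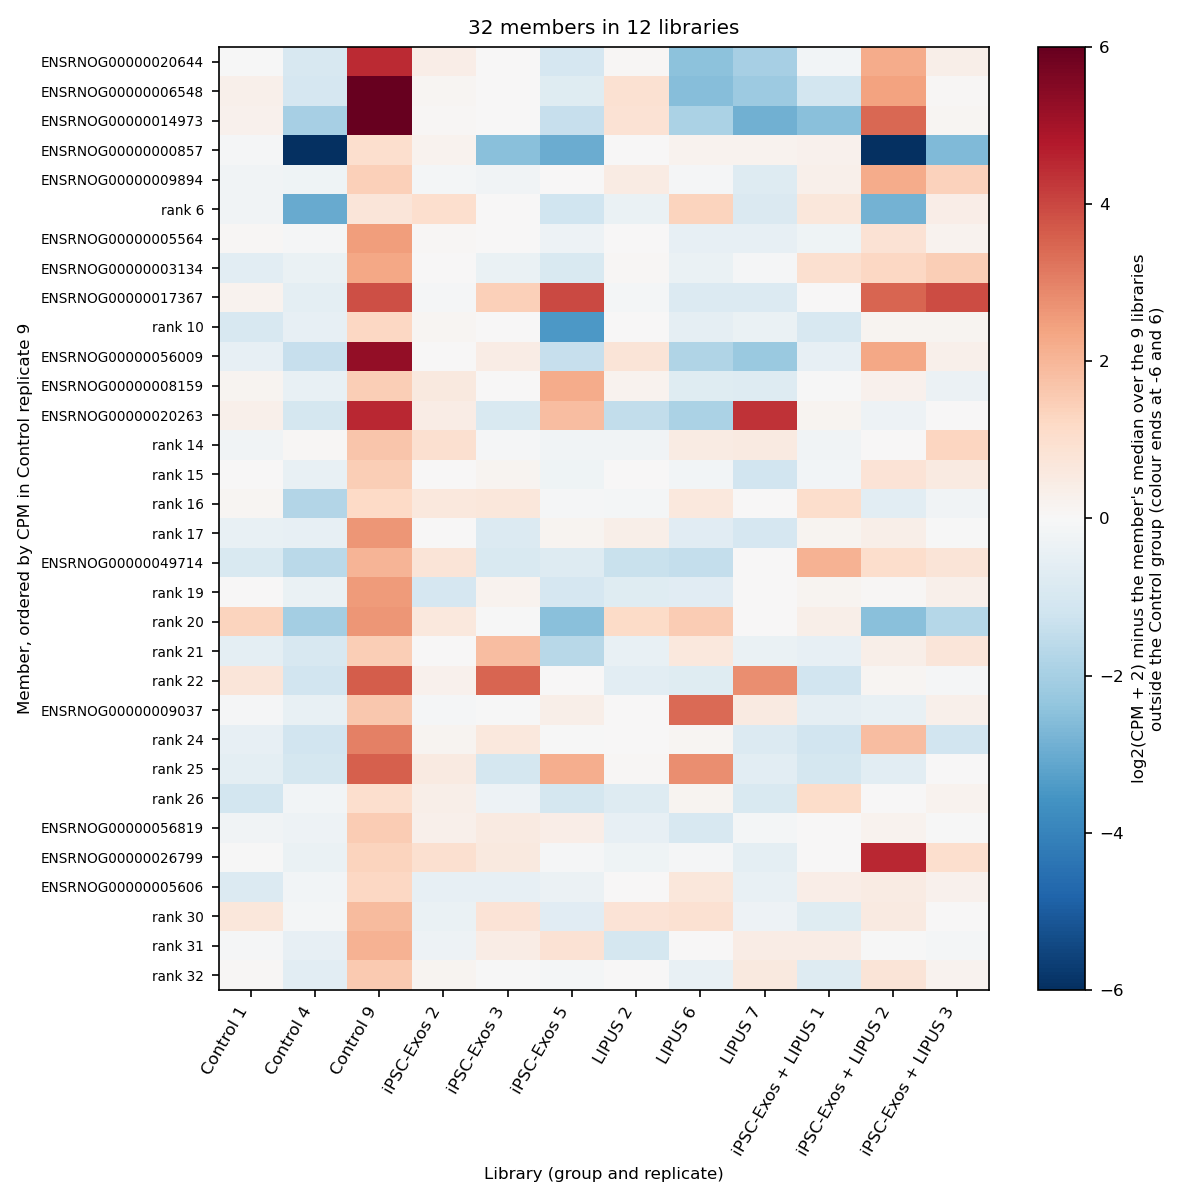
Each row is 1 of the 32 members, ordered by its CPM in Control replicate 9, and each column is 1 of the 12 libraries; IDs are given for the members named in the text and ranks for the others. Colour is log2(CPM + 2) minus the member's median over the 9 libraries outside the Control group, with red above and blue below; besides the column of Control replicate 9, single libraries such as iPSC-Exos + LIPUS replicate 2 are red for some members.

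The thresholds were then applied in the same way to each library against the other 2 of its group, an addition made after the data were seen. The 27 IDs of the drop list were not removed here and may be among the IDs found outside Control replicate 9. Control replicate 1 gave 30 IDs and Control replicate 4 gave 11, none of them a member, which the rule itself fixes. By number of IDs, Control replicate 9 with 32 lay close to Control replicate 1. Without ENSRNOG00000020644, the IDs found summed to 4856, 5245 and 17571 CPM in Control replicates 1, 4 and 9. In the 9 other libraries such sums lay between 885 and 7953 CPM, the latter in iPSC-Exos replicate 3. The Control values are those that chose the members, and each library was set against others of its own group, so these sums are a description.

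In iPSC-Exos replicates 2, 3 and 5, the thresholds gave 12, 26 and 10 IDs, or 0.399%, 0.859% and 0.331% of the IDs with at least 30 CPM. Members among them numbered 2, 2 and 3. In LIPUS replicates 2, 6 and 7 they gave 12, 14 and 7 IDs, or 0.402%, 0.47% and 0.239%, of which 3, 2 and 1 were members. In iPSC-Exos + LIPUS replicates 1, 2 and 3 they gave 16, 14 and 17 IDs, or 0.515%, 0.459% and 0.567%, of which 1, 5 and 0 were members. The 5 members raised in iPSC-Exos + LIPUS replicate 2 included ENSRNOG00000020644 and ENSRNOG00000014973. These same IDs were also among the 3 members that passed in LIPUS replicate 2, set against LIPUS replicates 6 and 7. For ENSRNOG00000020644 those were the lowest libraries of all. LIPUS replicate 2 had 23042.5 CPM of it, below the 29307.1 CPM of iPSC-Exos replicate 2. The 5 members raised in iPSC-Exos + LIPUS replicate 2 were 15.6% of the members and 35.7% of the IDs found there.

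**Figure D3:**
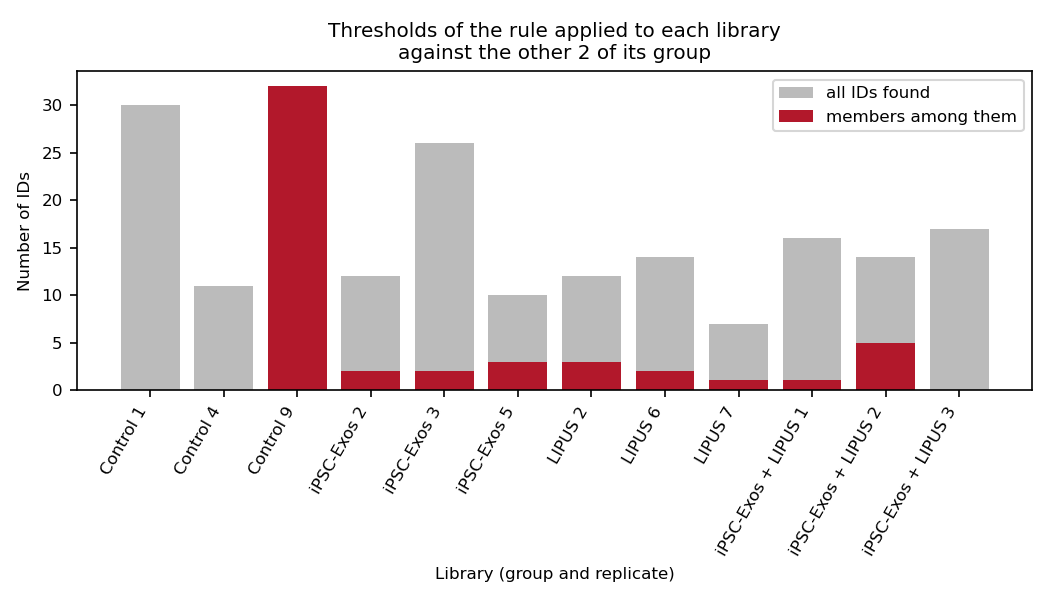
Number of IDs with at least 30 CPM and at least 3 times the mean of the other 2 libraries of the same group, for each of the 12 libraries. Grey bars count all IDs found and red bars the members among them; Control replicate 1, with 30 IDs, nearly equals Control replicate 9, with 32, and of the 9 libraries outside the Control group iPSC-Exos + LIPUS replicate 2 holds most members, 5.

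A count filter over the 9 libraries outside the Control group kept 4527 genes, and 29 of the 32 members passed it. The other 3 had fewer than 3 counts in 3, 3 and 4 of the 9 libraries. Of these 29, 10 were highest in iPSC-Exos + LIPUS replicate 2, where 9.43% of all genes tested were highest. The spread of the members between replicates was also compared, like the highest library after the data were seen. The median standard deviation within groups, on the log2(CPM + 2) scale, was 0.76 for the 29 members and 0.26 over the 4527 genes. It lay above the 90th percentile of all genes, 0.62, for 19 of the 29 members, against 10% of all genes by construction. Members thus varied between replicates of a group also in libraries that did not choose them, which is given as a description, with counting noise not removed.

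Whether the members followed ENSRNOG00000020644 was examined across the same 9 libraries, after the data had been seen. The groups were pooled and the permutations ignored them, so a difference between groups also enters r, rho and p. ENSRNOG00000005564, named after its values were seen, had 161, 153 and 122 CPM in iPSC-Exos replicates 2, 3 and 5 and 154, 110 and 108 CPM in LIPUS replicates 2, 6 and 7. In iPSC-Exos + LIPUS replicates 1, 2 and 3 it had 129, 278 and 179 CPM. Its highest library was the one where ENSRNOG00000020644 was highest, and its lowest 2 were the 2 LIPUS libraries where that gene was lowest. Pearson's r was 0.943 (exact permutation p = 2.8e-05, adjusted p = 0.118) and Spearman's rho was 0.967 (exact permutation p = 0.00017, adjusted p = 0.249). Without LIPUS replicate 6 and iPSC-Exos + LIPUS replicate 2, the 2 libraries farthest from the median of ENSRNOG00000020644, r was 0.914 and rho 0.964.

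ENSRNOG00000056009, named in the same way, had 7.29, 10.6 and 1.61 CPM in iPSC-Exos replicates 2, 3 and 5, and 13.9, 0.669 and 0 CPM in LIPUS replicates 2, 6 and 7. In iPSC-Exos + LIPUS replicates 1, 2 and 3 it had 4.65, 45.0 and 9.52 CPM. In 3 of the 9 libraries it had fewer than 3 counts. Pearson's r was 0.95 (exact permutation p = 0.00036, adjusted p = 0.257), Spearman's rho was 0.833 (exact permutation p = 0.0083, adjusted p = 0.548), and without the same 2 libraries r was 0.921 and rho fell to 0.679. ENSRNOG00000006548, the member with the most counts after ENSRNOG00000020644 and likewise named after its values were seen, gave an r of 0.947 and a rho of 0.933 (exact permutation p = 0.00047 and 0.00075, adjusted p = 0.267 and 0.308). Without the same 2 libraries its r was 0.836 and its rho 0.857. ENSRNOG00000014973 gave an r of 0.858 and a rho of 0.850 (exact permutation p = 0.0036 and 0.0061, adjusted p = 0.497 and 0.548), and without the same 2 libraries 0.762 and 0.821. By the absolute size of r the first 3 of these 4 IDs were ranked 4, 2 and 3 among 4526 genes.

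No relation passed the adjustment. With 2 measures, 9052 relations were computed, and after Benjamini-Hochberg adjustment over the 4526 genes 0% of them, and 0 of 28 members, had an adjusted p under 0.05 with either measure. The smallest exact permutation p that the 9 libraries allow was 2.8e-06, which limits what an adjustment over 4526 genes can pass. At an unadjusted p under 0.05, 9 of 28 members passed for r, against 8.55% of all genes, and 8 of 28 for rho, against 6.96%. The median r was 0.326 over the 28 members and 0.0498 over all genes. The opposite sign was largest for ENSRNOG00000009037, with an r of -0.732 (exact permutation p = 0.019, adjusted p = 0.563) and a rho of -0.683 (exact permutation p = 0.0503, adjusted p = 0.611).

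**Figure D4:**
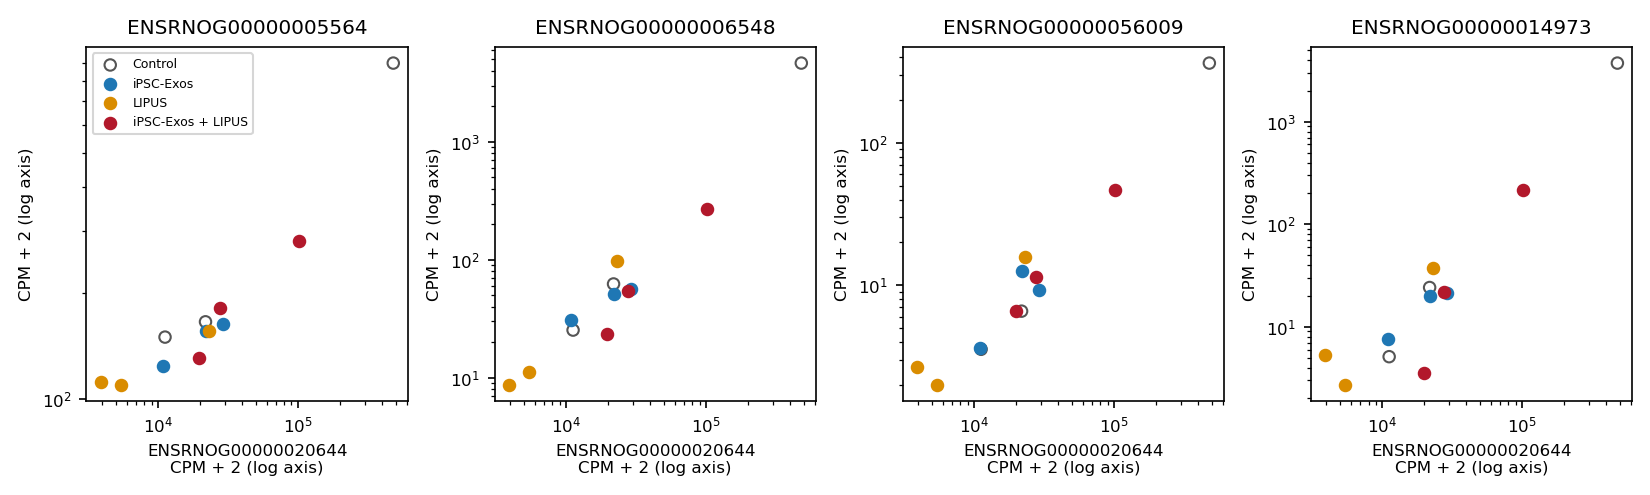
CPM + 2 of ENSRNOG00000005564, ENSRNOG00000006548, ENSRNOG00000056009 and ENSRNOG00000014973 against CPM + 2 of ENSRNOG00000020644, on log axes, with 1 point for each library coloured by group. Open circles are the Control libraries, which chose the members and were left out of r; among the filled circles iPSC-Exos + LIPUS replicate 2 lies highest in each panel and LIPUS replicates 6 and 7 lie farthest left.

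Adding ultrasound to exosomes was examined by comparing iPSC-Exos + LIPUS with iPSC-Exos. ENSRNOG00000003134 had 246, 304 and 357 CPM in iPSC-Exos + LIPUS replicates 1, 2 and 3, and 126, 96.0 and 65.8 CPM in iPSC-Exos replicates 2, 3 and 5. All 3 libraries with both treatments lay above the 3 with exosomes alone. The mean was 302 ± 55.2 CPM (SD, n = 3) with both treatments and 96.1 ± 30.3 CPM (SD, n = 3) with exosomes alone, and the log2 fold change was 1.66 with a standard error of 0.23 (adjusted p = 0.0163, edgeR's quasi-likelihood test). It was the 1 member of 29 that passed in the higher direction, where 0.133% of all genes passed, and DESeq2 also gave 1 (28 genes). At an unadjusted p under 0.05, 5 of 29 members were higher, against 4.35% of all genes. In the Control libraries, which chose it, it had 79.5, 96.5 and 641 CPM in replicates 1, 4 and 9. ENSRNOG00000009894 had 566, 2165 and 1189 CPM against 415, 395 and 454 CPM in the same order, again without overlap, but did not pass (log2 fold change 1.65, standard error 0.39, adjusted p = 0.190, edgeR). Without iPSC-Exos + LIPUS replicate 1 its log2 fold change was 2.02 (adjusted p = 0.0289, edgeR), and without replicate 2 of that group it fell to 1.07 (adjusted p = 0.457, edgeR). Over 18 alternatives its adjusted p ranged from 2.0e-34, without a filter on low counts, to 0.488, with the Control libraries in the fit. The median log2 fold change was 0.40 over the 29 members and -0.01 over all genes. In the lower direction 0 members and 0% of all genes passed with edgeR, 1 of 29 members had an unadjusted p under 0.05, against 3.25% of all genes, and DESeq2 gave 0 members (4 genes). ENSRNOG00000056819 had 14.7, 17.1 and 14.6 CPM with both treatments and 18.6, 22.7 and 20.1 CPM with iPSC-Exos, without overlap (log2 fold change -0.39, adjusted p = 0.856, edgeR). ENSRNOG00000008159 had 127, 153 and 98.1 CPM against 192, 127 and 604 CPM, with overlap (log2 fold change -1.26, adjusted p = 0.444, edgeR). Its difference rested on iPSC-Exos replicate 5, without which the log2 fold change was -0.35 (adjusted p = 0.930, edgeR). The call of ENSRNOG00000003134 was lost with only the 2 groups in the edgeR fit (adjusted p = 0.0612) and with the Control libraries in it (adjusted p = 0.741), while the log2 fold change was 1.66 in both. The Control libraries chose the members by their spread there, so the latter fit is not independent of the choice. The call was kept in each of the 9 fits that left out a library. Over 18 alternatives the adjusted p ranged from 4.5e-21, without a filter on low counts, to 0.741.

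Adding exosomes to ultrasound was examined by comparing iPSC-Exos + LIPUS with LIPUS, and 3 of 29 members passed with edgeR in the higher direction, where 2.41% of all genes passed, while DESeq2 gave 4 (150 genes). At an unadjusted p under 0.05, 8 of 29 members were higher, against 10.6% of all genes. ENSRNOG00000003134 had 131, 95.0 and 119 CPM in LIPUS replicates 2, 6 and 7, all below the 3 libraries with both treatments. The mean with LIPUS was 115 ± 18.2 CPM (SD, n = 3), and the log2 fold change was 1.36 with a standard error of 0.22 (adjusted p = 0.00605, edgeR). Its call was lost with the Control libraries in the edgeR fit (adjusted p = 0.310, log2 fold change 1.36), a fit not independent of the choice of members. A block for the replicate number also lost the call (adjusted p = 0.115, edgeR, log2 fold change 1.36). It was kept in each of the 9 fits that left out a library and in 16 of 18 alternatives. Over these 18 the adjusted p ranged from 9.3e-15, without a filter on low counts, to 0.310. The comparisons share libraries, so they are not independent of each other. The median log2 fold change was 0.56 over the 29 members and 0.02 over all genes.

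ENSRNOG00000049714 had 105, 51.4 and 41.7 CPM in iPSC-Exos + LIPUS replicates 1, 2 and 3, and 8.17, 7.36 and 23.5 CPM in LIPUS replicates 2, 6 and 7. The groups did not overlap, and the log2 fold change was 2.28 with a standard error of 0.56 (adjusted p = 0.0410, edgeR). ENSRNOG00000009894, the third and named after its values were seen, had 639, 436 and 268 CPM in LIPUS replicates 2, 6 and 7. Its groups overlapped, since LIPUS replicate 2 lay above iPSC-Exos + LIPUS replicate 1. The mean was 1307 ± 806 CPM (SD, n = 3) with both treatments and 448 ± 186 CPM (SD, n = 3) with LIPUS, a log2 fold change of 1.52 with a standard error of 0.39 (adjusted p = 0.0458, edgeR). With DESeq2 the log2 fold change was also 1.52 (adjusted p = 0.0519).

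The calls of these last 2 members were lost in several fits that left out a library. For ENSRNOG00000049714 the adjusted p with edgeR was 0.143, 0.0593 and 0.0564 without iPSC-Exos + LIPUS replicates 1, 2 and 3, and 0.124 and 0.125 without LIPUS replicates 2 and 6. The log2 fold change in these 5 fits lay between 1.80 and 2.49. For ENSRNOG00000009894 it was 0.0545 and 0.0584 without iPSC-Exos replicates 2 and 3, 0.0931 without iPSC-Exos + LIPUS replicate 3, and 0.122 and 0.174 without LIPUS replicates 6 and 7. The log2 fold change was 1.51, 1.52 and 1.57 in the first 3 of these fits, close to that without LIPUS replicate 6, and lower without LIPUS replicate 7. Without iPSC-Exos + LIPUS replicate 2 its log2 fold change was 0.95 (adjusted p = 0.135, edgeR). For ENSRNOG00000049714 the adjusted p ranged from 3.8e-10 to 0.227 over 18 alternatives and was under 0.05 in 11, and for ENSRNOG00000009894 it ranged from 6.8e-30 to 0.174 and was under 0.05 in 9. Both lowest values came from the fit without a filter on low counts, and 0.227 from the fit with the Control libraries.

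In the lower direction 0 of 29 members passed with edgeR, where 2.08% of all genes passed. An unadjusted p under 0.05 was found for 3 of 29 members, against 9.87% of all genes, and DESeq2 gave 0 members (138 genes). ENSRNOG00000009037 had 10.1, 10.7 and 19.8 CPM with both treatments and 15.5, 185 and 23.5 CPM in LIPUS replicates 2, 6 and 7 (log2 fold change -2.50, adjusted p = 0.0818, edgeR). LIPUS replicate 6 alone was far above the rest, and the groups overlapped. Without it the log2 fold change was -0.57 (adjusted p = 0.523, edgeR), and without LIPUS replicate 2 it was -2.99 (adjusted p = 0.0353, edgeR). ENSRNOG00000020263 had 11.6, 7.86 and 10.3 CPM with both treatments and 2.45, 1.34 and 248 CPM in LIPUS replicates 2, 6 and 7 (log2 fold change -3.14, adjusted p = 0.202, edgeR). Its direction rested on LIPUS replicate 7, without which the log2 fold change was 2.32 (adjusted p = 0.262, edgeR).

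**Figure D5:**
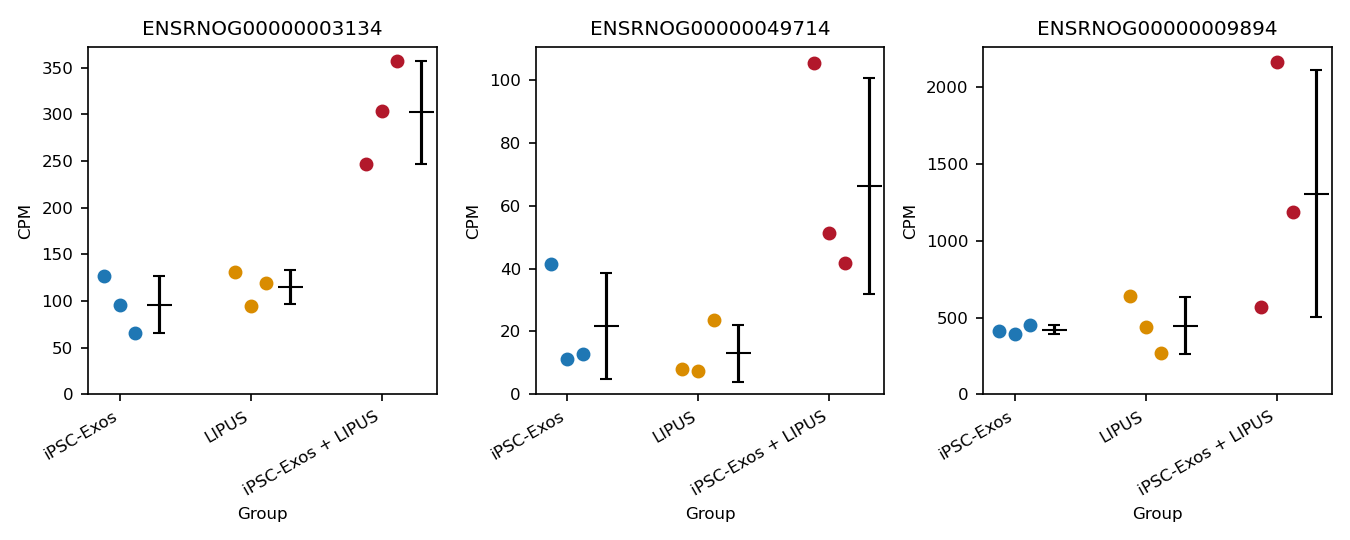
CPM of the 3 members with an adjusted p under 0.05 with edgeR, in the 9 libraries outside the Control group. Points are libraries, and the line and bar beside them are the mean and SD of 3; ENSRNOG00000003134 lies between 246 and 357 CPM in iPSC-Exos + LIPUS and at or below 131 CPM in the other 2 groups, while the other 2 members spread widely among the libraries with both treatments.

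Ultrasound and exosomes given singly were examined by comparing LIPUS with iPSC-Exos. Here 0 of 29 members passed in either direction with edgeR, where 0.464% of all genes were higher and 0.596% lower. At an unadjusted p under 0.05, 1 of 29 members was higher, against 7.6% of all genes, and 3 were lower, against 8.26%. DESeq2 gave 0 members in both directions (68 genes higher and 63 lower). ENSRNOG00000017367 had 29.4, 17.4 and 17.8 CPM in LIPUS replicates 2, 6 and 7 and 30.8, 92.2 and 536 CPM in iPSC-Exos replicates 2, 3 and 5. The groups did not overlap but came within 2 CPM of each other, and the log2 fold change of -3.29 did not pass (standard error 1.05, adjusted p = 0.146, edgeR). Without iPSC-Exos replicate 5 it was -1.50 (adjusted p = 0.490, edgeR). The same ID had 32.5, 386 and 515 CPM in iPSC-Exos + LIPUS replicates 1, 2 and 3 and, in Control replicates 1, 4 and 9, which chose it, 38.2, 21.0 and 497 CPM. ENSRNOG00000056819 had 9.81, 6.69 and 13.5 CPM with LIPUS and 18.6, 22.7 and 20.1 CPM with iPSC-Exos (log2 fold change -0.98, adjusted p = 0.199, edgeR). ENSRNOG00000005606 had 18.0, 30.1 and 12.8 CPM with LIPUS and 12.1, 12.1 and 13.6 CPM with iPSC-Exos (log2 fold change 0.73, adjusted p = 0.339, edgeR), and these groups overlapped. Its log2 fold change fell to 0.32 without LIPUS replicate 6 (adjusted p = 0.727, edgeR). ENSRNOG00000009037 had 14.6, 15.1 and 20.1 CPM in iPSC-Exos replicates 2, 3 and 5, against the 15.5, 185 and 23.5 CPM with LIPUS given above, again with overlap (log2 fold change 2.23, adjusted p = 0.168, edgeR). Without LIPUS replicate 6 the log2 fold change was 0.29 (adjusted p = 0.805, edgeR). The median log2 fold change was -0.16 over the 29 members and -0.02 over all genes.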

How the data were processed

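RNA was measured in 12 libraries, 3 in each of 4 groups taken from the sample titles. The authors deposited raw counts per gene, made per the submitters' processing notes with Trimmomatic (version 0.38), HISAT2 (version 2.0.5), SAMtools and StringTie on the build Rnor_6.0, which the notes list without their settings. The members and lists were chosen with earlier results of these data known. After a filterByExpr filter and with TMM factors, the 9 libraries outside the Control group were tested with edgeR (version 4.0.16, quasi-likelihood test, Benjamini-Hochberg adjustment over all genes, R version 4.3.3), and again with DESeq2 (version 1.42.0). Standard errors were obtained by dividing the log2 fold change by the square root of F. Relations used log2(CPM + 2) and all 362880 pairings, two-sided. The edgeR and permutation steps were tested on simulated data. The chi-square per degree of freedom between replicates of a group, set against counting noise alone, was at least 5.10. Libraries were counted as separate samples, which this value cannot show, since repeat libraries of 1 sample may also exceed counting noise. Named IDs were to be the members with the highest CPM and ratio in Control replicate 9 and, in each comparison and direction, the 2 with the smallest p, those without overlap first; other IDs are marked where named. Other alternatives were RLE and upper quartile factors, other filters, other sets of libraries, a block for the replicate number, other thresholds of the rule and each library left out. The distances, the thresholds applied to each library, the highest library, the spread within groups, the relations and their alternatives, and the sum of members without ENSRNOG00000020644 were chosen after seeing the data. Marker lists and promoters were not used, as they need names. Reads shared between similar genes were not examined.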

Additional observations from a re-analysis of the deposited data

How the results depend on the processing

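Choices were changed singly. Without a filter on low counts, the members higher in iPSC-Exos + LIPUS numbered 8 against iPSC-Exos (1) and 10 against LIPUS (3), those lower 2 and 6 (0 each), and for LIPUS against iPSC-Exos 3 were higher and 3 lower (0 each). Over all genes the calls of these fits rose as well, to 88, 232, 38, 185, 101 and 138 in the same order (6, 109, 0, 94, 21 and 27 with the filter). With the 12 libraries in the fit, 0 members were higher in either comparison of iPSC-Exos + LIPUS (0 and 63 genes), and with only the 2 groups 0 were higher than in iPSC-Exos (0 genes). The fit of 12 holds the Control libraries that chose the members, and the choice widens the members' spread there. It is therefore not independent of the choice. At least 10 counts in every library gave 5 members higher than in LIPUS (122 genes). With the replicate block, 3 members were higher than in iPSC-Exos and 2 than in LIPUS (10 and 16 genes), ENSRNOG00000003134 and ENSRNOG00000049714 lost their calls against LIPUS (adjusted p = 0.115 and 0.129, edgeR, log2 fold change 1.36 and 2.98), ENSRNOG00000009894 passed against iPSC-Exos (adjusted p = 0.0036, edgeR, log2 fold change 1.99), and the log2 fold change of ENSRNOG00000020263 reversed to 2.13. No pairing of same-numbered libraries was detected (mean correlation of deviations -0.0157 over 4 pairs and 0.00272 over 23 others). The 4 pairs ranged from -0.143 to 0.0770 and are too few to exclude it. With each library left out, 30 to 32 members were tested, and members higher ranged from 1 to 2 against iPSC-Exos (highest without iPSC-Exos + LIPUS replicate 1) and from 1 to 4 against LIPUS (lowest without iPSC-Exos + LIPUS replicate 2 or 3 or LIPUS replicate 6), where 1 to 9 and 40 to 114 genes were called. Members lower ranged from 0 to 1 against LIPUS (1 without LIPUS replicate 2) and, for LIPUS against iPSC-Exos, from 0 to 1 (1 without iPSC-Exos replicate 3), where 26 to 103 and 0 to 39 genes were called. The log2 fold change of ENSRNOG00000020263 ranged from -3.72 to 2.32. The cause was not tested.

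The rule gave 16 members with totals that include ENSRNOG00000020644, 56 at 2 times, 16 at 5 times, 61 at 10 CPM and 18 at 100 CPM, against 32. The mean summed share with iPSC-Exos, LIPUS and iPSC-Exos + LIPUS was 0.0779%, 0.0635% and 0.0799% without the 10 members highest in Control replicate 9, and 0.674%, 0.572% and 0.840% with the 27 IDs of the drop list added, of which 0 met the rule, so that these are not shares of members. With all members over all counts, chosen after seeing the data, it was 2.32%, 1.40% and 5.06%. The 5 other settings of the relation with ENSRNOG00000020644, each with the same 9 libraries and so the same limit on p, also gave 0 members.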
